A study of Mus musculus with 48 samples.

Results

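Nociceptors, sensory neurons whose activity signals tissue damage, were profiled by RNA sequencing after deletion of Tsc2 and in the absence of nerve injury to their own side. Of the 48 libraries of the study, 24 came from uninjured ganglia, 12 of conditional knockout (cKO) mice and 12 of control mice. Each animal gave 3 technical aliquots, whose counts were summed, so that 4 cKO samples were compared with 4 control samples across all genes. The cKO mice carried 1 floxed and 1 null allele of Tsc2, and the control mice 1 floxed and 1 wild-type allele. All animals carried Nav1.8-Cre, which is active only in the Nav1.8 (Scn10a) lineage of sensory neurons, and a Rosa26-ZsGreen reporter that marks the recombined cells. The controls therefore had recombined a Tsc2 copy as well, and the comparison is between neurons with no intact copy and neurons with 1. By these genotypes, cells outside the lineage kept 1 intact copy in cKO mice and 2 in control mice. The part of that difference in the results was not tested. All mice were 8 to 9 weeks old, on a mixed background of C57BL/6 and AJ, and comprised 2 males (samples 1 and 2) and 2 females (samples 3 and 4) per group. The uninjured samples were L4 dorsal root ganglia contralateral to a sciatic nerve that had been crushed 3 days earlier, so these animals were not naive to injury. About 100 ZsGreen-positive cells were sorted for each library.

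Tsc2 encodes tuberin, which together with hamartin (Tsc1) switches off the small GTPase Rheb and so restrains mTORC1, a kinase complex that drives protein, lipid and nucleotide synthesis and limits autophagy. Loss of tuberin leaves mTORC1 active regardless of growth factor supply. In sensory neurons mTORC1 activity is known to rise after axon injury and to favour axon regrowth, and the transcription factors ATF3, ATF4 and TFEB are among those tied to growth, amino acid supply and lysosomes in this setting.

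Per uninjured library, between 8339220 and 34228180 counts fell in genes, with a median of 17062573. The summed samples held 47959617 to 61290435 counts in cKO and 50092284 to 61266577 in control. Mitochondrially encoded genes took 1.28 to 3.37% of counts. The sorted cells carried the markers they were labelled with. Scn10a itself had 597, 659, 577 and 599 counts per 1000000 counts (CPM) in cKO samples and 516, 606, 780.1 and 791 CPM in control samples. On the first principal component of the 8 samples, which held 40.06% of the variance, all cKO samples lay on one side and all control samples on the other. The second component, with 14.6%, spread the control samples from -96.9 (sample 2) to 76.9 (sample 4), while cKO samples lay between -14.9 and 0.76. Control samples of the males and females stood apart for the non-peptidergic marker Mrgprd. It had 548, 486, 598 and 516 CPM in cKO samples, against 56.7, 22.0, 325 and 233 CPM in control samples. Within-sex values are therefore given for genes of the peptidergic and non-peptidergic classes named below. All 2230 risen and 1716 of 1718 fallen genes kept their direction in both sexes when a mean was fitted for each group and sex. The calls came from these same samples, so this agreement was favoured in advance and is not separate support. None of the called genes had a difference between the sexes past the threshold. With 2 samples per group and sex, that does not show that the effects are alike.

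Deletion changed a large part of the transcriptome. Of 19048 genes tested, 3948 (20.7%) passed an adjusted p of 0.05, 2230 (11.7%) higher and 1718 (9.02%) lower in cKO neurons. A change of more than 2-fold was found for 1940 of them, 1208 higher and 732 lower. The median log2 change was 1.09 among the risen and -0.85 among the fallen genes, against 0.015 over all genes tested. Large rises outnumbered large falls, with 695 genes above a log2 change of 2 and 320 below -2, and 301 above 5 and 46 below -5. Of the risen genes 305 had 3 counts or fewer in each control sample, against 26 fallen genes in cKO samples. A fit of the 8 uninjured samples alone called 119 of the 305. The part of such genes in the excess of large rises was not tested. Together the risen genes took 218200 CPM in cKO and 129000 CPM in control samples, and the fallen genes 153700 CPM in cKO and 266800 CPM in control samples. In 1951 of the risen and 1473 of the fallen genes the 4 cKO and 4 control samples did not overlap. Over all tested genes, 25.4% had no overlap (14% with cKO higher and 11.4% with cKO lower). Spread among replicates differed between the groups, with a median SD of log2 CPM of 0.300 in cKO and 0.427 in control samples. Because these are bulk samples of sorted cells, fewer cells of a type and less RNA per cell cannot be told apart.

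**Figure D1:**
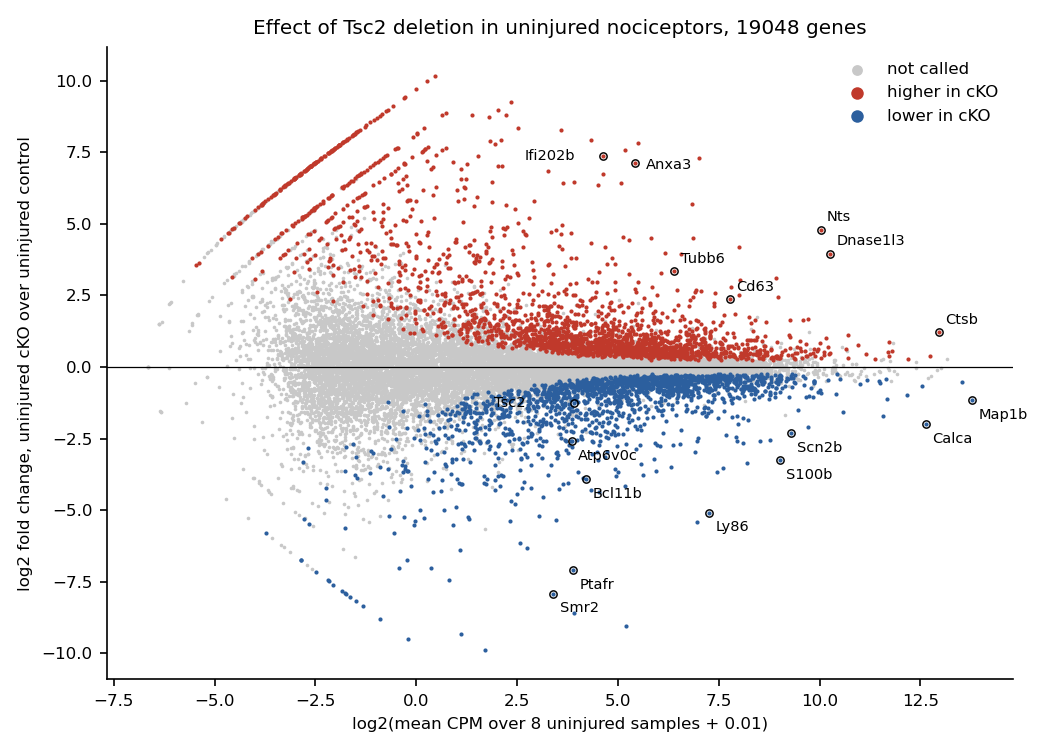
Each point is 1 of 19048 genes, with the mean level over the 8 uninjured samples on the horizontal axis (log2 CPM plus 0.01) and the log2 fold change of cKO over control on the vertical axis. Red points are the 2230 genes higher and blue points the 1718 genes lower in cKO at an adjusted p under 0.05, and the diagonal rows at the left are genes with few or no counts in 1 of the groups.

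Tsc2 (chr17:24595816-24632630, GRCm38) had 8.72, 8.52, 7.29 and 10.9 CPM in cKO samples and 13.6, 24.8, 21.5 and 24.1 CPM in control samples. All 4 cKO samples lay below all control samples. The log2 change was -1.25 ± 0.23, adjusted p = 0.00101. An exact two-sided permutation test of the CPM values gave p = 0.0286, the smallest that 4 against 4 samples allow. Counts are summed over the whole gene, so the remaining reads do not show whether the deleted exons were present. Tsc1, whose product is the partner of tuberin, had 21.0 ± 4.94 CPM in cKO and 13.7 ± 1.65 CPM in control samples (SD, n = 4 each) and did not pass the test (0.61 ± 0.25, adjusted p = 0.0983).

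Among 49 tested members of the mTORC1 pathway 12 were higher and 6 lower in cKO neurons, Tsc2 itself among the lower ones, and the median log2 change was 0.10. The largest rise among the named members was that of Grb10, an adaptor that mTORC1 phosphorylates and that dampens insulin receptor signalling. It had 96.1, 79.4, 103 and 85.4 CPM in cKO samples and 31.6, 18.1, 14.6 and 17.6 CPM in control samples, with no overlap (2.15 ± 0.22, adjusted p = 4.27e-06). The folliculin-interacting proteins Fnip1 (0.94 ± 0.18) and Fnip2 (1.25 ± 0.19), which act with folliculin on the Rag GTPases that bring mTORC1 to the lysosome, also rose. Sesn3, a sestrin that restrains mTORC1, had 53.8 ± 5.03 CPM in cKO and 24.6 ± 5.29 CPM in control samples and rose by 1.13 ± 0.18 on the log2 scale.

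The genes with the largest rises were near the detection limit in control neurons. Ifi202b, an interferon-inducible DNA-binding protein gene, had 49.0, 32.5, 86.7 and 30.4 CPM in cKO samples, against 0.275, 0.458, 0.253 and 0.201 CPM in control samples (7.38 ± 0.52, adjusted p = 1.04e-07). Anxa3, an annexin that binds membranes in the presence of calcium, had 67.9, 66.7, 126 and 83.0 CPM in cKO and 0.343, 1.05, 0.796 and 0.261 CPM in control samples (7.13 ± 0.58, adjusted p = 4.86e-07). Qrfpr, the receptor of the neuropeptide QRFP, had 49.1, 24.2, 58.3 and 63.2 CPM in cKO and 0.824, 0.191, 0.633 and 0.120 CPM in control samples (6.75 ± 0.68, adjusted p = 4.78e-06). In each of these the lowest cKO sample was many times the highest control sample. Tgfbi, a secreted matrix protein gene, stood at 45.2 ± 8.06 CPM in cKO and 0.557 ± 0.767 CPM in control samples and Wfdc3, which encodes a WAP-domain protein, at 23.9 ± 9.14 and 0.768 ± 0.603 CPM in the same order. Their log2 changes were 6.37 ± 0.63 and 4.94 ± 0.62. Krt19, an intermediate filament keratin, rose by 8.29 ± 0.81, Ucn, the stress neuropeptide urocortin, by 7.93 ± 0.68, and Wt1, a zinc finger transcription factor, by 7.58 ± 0.69. Gm29374, an annotated gene without a given function, rose by 6.44 ± 0.45.

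Measured by the gain in CPM rather than by fold, the leading genes included secreted and lysosomal products. Nts, the neuropeptide neurotensin, had 1570, 1195, 3103 and 2176 CPM in cKO samples and 15.9, 97.4, 83.8 and 93.9 CPM in control samples (4.79 ± 0.57, adjusted p = 2.37e-05). Dnase1l3, a secreted DNA-cutting enzyme, had 2460, 2656, 2971 and 1138 CPM in cKO and 103, 173, 141 and 176 CPM in control samples (3.96 ± 0.43, adjusted p = 9.72e-06). Neither gene overlapped between the groups, although the lowest samples of each, control sample 1 for Nts and cKO sample 4 for Dnase1l3, stood well below their group. Cathepsin B (Ctsb), described with the lysosome below, gained the most, with 11170 ± 508 CPM in cKO and 4838 ± 362 CPM in control samples. Prr13 (0.88 ± 0.11) and the mitochondrially encoded mt-Co1 (0.55 ± 0.14) gained by smaller factors. Cd24a, a small glycosylated surface protein, had 2334, 2136, 2462 and 2138 CPM in cKO and 577, 712, 1687 and 1212 CPM in control samples (1.11 ± 0.26, adjusted p = 0.00652). The male controls were lower than the female controls, and the log2 change was 1.79 within males and 0.67 within females. Tubb3 and Tmsb4x also belonged to this group by CPM, but each call was lost when single samples were left out, with adjusted p up to 0.105 for Tubb3 (without cKO sample 2) and up to 0.0927 for Tmsb4x (without control sample 2).

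The largest falls included genes known from subsets of sensory neurons. Smr2, a secreted-protein gene known from a subset of peptidergic nociceptors, had 0.0619, 0.213, 0.0163 and 0.0506 CPM in cKO samples and 27.0, 32.1, 7.31 and 17.9 CPM in control samples (-7.92 ± 1.26, adjusted p = 0.000319). Ptafr, the receptor of platelet-activating factor, had 0.0825, 0.124, 0.326 and 0.304 CPM in cKO and 6.45, 61.5, 26.1 and 24.0 CPM in control samples (-7.10 ± 1.24, adjusted p = 0.000725). Both were almost undetected in cKO neurons, and Smr2 changed by -7.69 within males and -8.46 within females. Pcp4l1, which encodes a small neuronal protein, had 10.2, 1.61, 7.02 and 3.90 CPM in cKO and 113, 286, 112 and 462 CPM in control samples (-5.42 ± 0.72, adjusted p = 6.31e-05). Ly86, the secreted partner of a Toll-like receptor relative, had 8.78, 10.2, 9.69 and 6.33 CPM in cKO and 104, 43.7, 588 and 458 CPM in control samples (-5.09 ± 0.81, adjusted p = 0.000317), so that control samples differed among themselves by more than the factor between the lowest of them and the cKO samples. The transcription factor gene Bcl11b, known from development of several neuron classes, had 0.990, 2.39, 1.93 and 3.93 CPM in cKO and 48.7, 38.5, 23.1 and 29.1 CPM in control samples (-3.91 ± 0.49, adjusted p = 3.55e-05). Further falls with no overlap were those of Mob3b, of the MOB kinase activator family (-4.31 ± 0.39), the cyclic AMP phosphodiesterase Pde4c (-4.26 ± 0.54), the junction proteins Cldn9 (-4.38 ± 0.84) and Cgnl1 (-4.15 ± 0.54), the calcium-binding protein Chp2 (-4.08 ± 0.83), the secreted glycoprotein Creg2 (-4.05 ± 0.76) and the nicotinic receptor subunit Chrnb4 (-3.89 ± 1.07).

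In CPM, the largest losses were in the neuropeptide precursor Calca and in cytoskeletal and signalling genes. Calca, which encodes calcitonin gene-related peptide, had 2560, 3372, 1874 and 2423 CPM in cKO samples and 13630, 14740, 6038 and 6510 CPM in control samples (-2.0 ± 0.29, adjusted p = 0.000153), with log2 changes of -2.26 within males and -1.55 within females. Map1b, a microtubule-associated protein of growing axons, had 8334, 9911, 10910 and 5908 CPM in cKO and 29700, 19980, 15560 and 12740 CPM in control samples (-1.15 ± 0.26, adjusted p = 0.00445). The groups did not overlap in either gene, and the male controls held the highest values in both. Ppp3ca, the catalytic subunit of the phosphatase calcineurin, fell by 1.57 on the log2 scale, with 773 ± 61.0 CPM in cKO and 2302 ± 444 CPM in control samples. The tetraspanin Cd9 (-1.72 ± 0.21), the secreted follistatin relative Fstl1 (-0.99 ± 0.15), the vesicle fusion protein Snap25 (-1.11 ± 0.14) and the axon guidance mediator Dpysl2 (-0.51 ± 0.13) also fell.

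**Figure D2:**
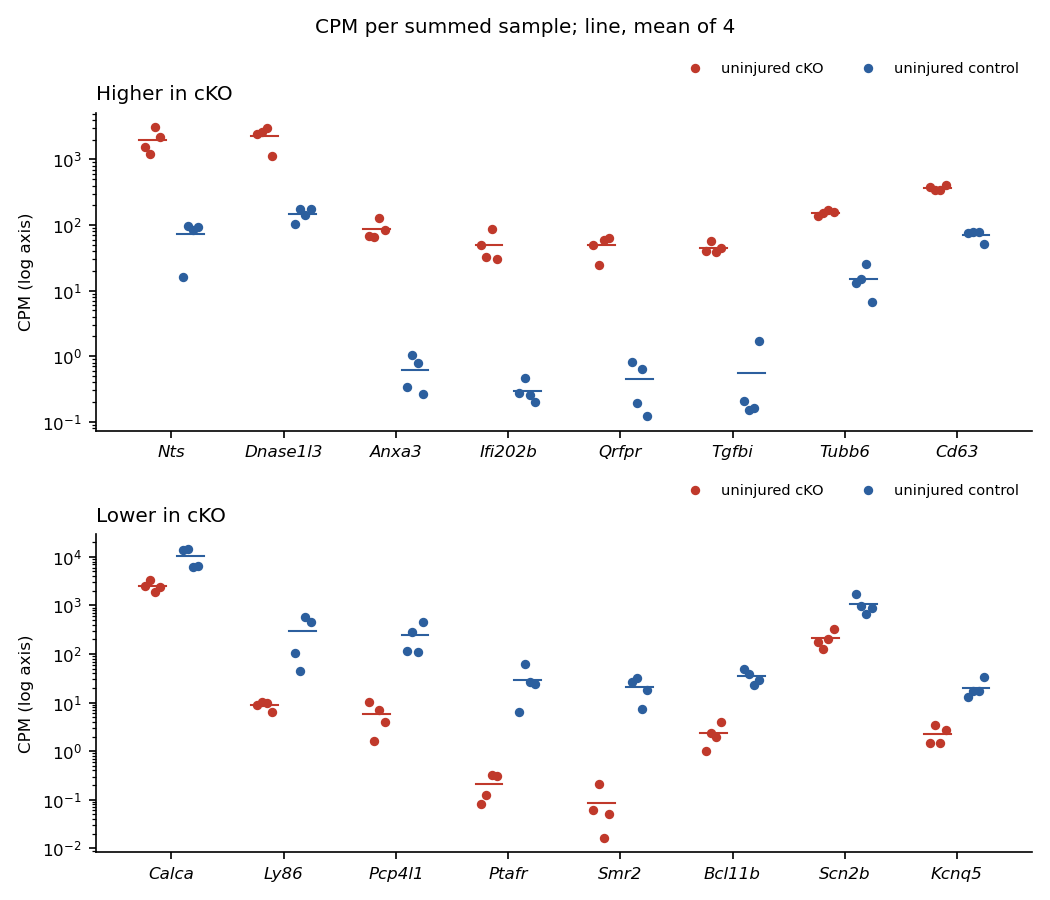
Levels of 8 genes that were higher (top) and 8 that were lower (bottom) in cKO, in CPM on a log axis, with 1 point per summed sample, cKO in red to the left of control in blue, and a line at the mean of 4 samples. In none of the 16 genes do cKO and control points overlap. Most of them were named by a rule that admits only genes without overlap, so this was largely fixed in advance.

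The shares of list members that rose or fell are read against the background of 11.7% of all genes higher and 9.02% lower.

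**Figure D3:**
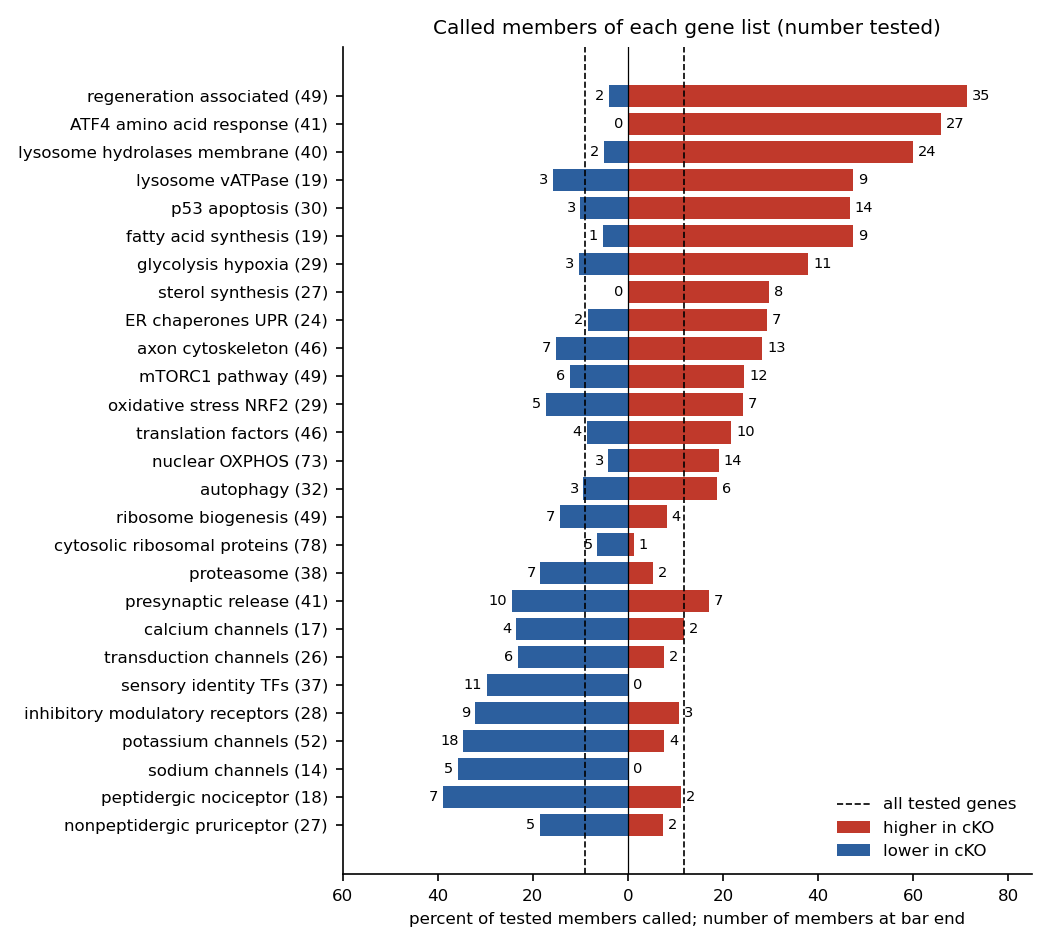
Bars show the percent of tested members of each gene list that were higher (red, right) or lower (blue, left) in cKO at an adjusted p under 0.05, with the number of members at the bar end and the number tested in parentheses. Dashed lines mark the shares over all 19048 genes, 11.7% higher and 9.02% lower, which the regeneration, ATF4 and lysosome lists exceed on the right and the sodium channel, potassium channel and peptidergic lists on the left.

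Genes known to be induced in axotomized sensory neurons were higher in neurons whose own axons were not crushed. Of 49 tested members 35 rose and 2 fell, with a median log2 change of 2.11. Inhbb, a subunit of activin B, had 30.6, 22.3, 31.0 and 34.2 CPM in cKO samples and 0.257, 0.248, 0.362 and 0.462 CPM in control samples (6.47 ± 0.24, adjusted p = 8.68e-11). Sez6l, a neuronal membrane protein, had 80.6, 60.9, 60.7 and 66.3 CPM in cKO and 1.30, 0.420, 0.633 and 0.703 CPM in control samples (6.44 ± 0.27, adjusted p = 4.17e-10). Flrt3, an adhesion molecule of axon guidance, had 243, 213, 215 and 247 CPM in cKO and 43.2, 29.7, 39.4 and 32.1 CPM in control samples (2.67 ± 0.13, adjusted p = 2.68e-09). In all 3 genes the 4 cKO samples agreed closely and lay far above every control sample. Sprr1a, a small proline-rich protein that promotes axon outgrowth, rose by 5.69 ± 0.25, the cholecystokinin receptor gene Cckbr by 7.82 ± 0.25 and the endopeptidase relative Ecel1 by 7.31 ± 0.37. The members that fell, named because they were so few, were Bdnf (-1.33 ± 0.36), a neurotrophin, and Creb5 (-1.90 ± 0.54), a transcription factor of the CREB family.

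Of 46 axon cytoskeleton genes 13 rose and 7 fell, with a median log2 change of 0.07. The tubulin genes moved in both directions. Tubb6 had 135, 155, 171 and 155 CPM in cKO and 13.2, 15.2, 25.5 and 6.69 CPM in control samples (3.35 ± 0.30, adjusted p = 1.32e-06), and Tuba1c had 48.8 ± 7.81 CPM in cKO and 4.03 ± 1.51 CPM in control samples (3.60 ± 0.27, adjusted p = 2.23e-07). Tuba4a, by contrast, had 135 ± 16.6 CPM in cKO and 322 ± 44.7 CPM in control samples (-1.25 ± 0.14, adjusted p = 1.18e-05). The tubulin-binding stathmin gene Stmn4 rose by 2.70 ± 0.27, and Mapt, the microtubule-binding protein tau, fell by 0.82 on the log2 scale (adjusted p = 1.79e-05).

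Targets of ATF4, which supplies cells with amino acids under stress, rose together. Of 41 tested targets 27 rose and 0 fell, and the median log2 change was 0.90. Atf4 had 194, 199, 208 and 194 CPM in cKO samples and 90.0, 76.7, 102 and 81.8 CPM in control samples (1.18 ± 0.11, adjusted p = 2.44e-06). Its partner Ddit3, also called CHOP, had 183, 165, 172 and 193 CPM in cKO and 58.3, 80.5, 79.0 and 62.6 CPM in control samples (1.35 ± 0.11, adjusted p = 4.86e-07). Chac1, which breaks down glutathione, had 44.0, 38.0, 42.2 and 35.4 CPM in cKO and 5.85, 3.97, 7.13 and 3.61 CPM in control samples (2.95 ± 0.26, adjusted p = 1.14e-06). None of these genes overlapped between the groups. Aars, which charges alanine to its tRNA (1.57 ± 0.11), and the mitochondrial folate enzyme gene Mthfd2 (1.23 ± 0.13) rose as well.

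The promoters of the risen members were searched for motifs of factors tied to these lists, in the 250 bases before and 50 bases after each gene's start, on both strands. RefSeq promoters of build GRCm38.p6 matched 12624 of the tested genes. The ATF4 composite site TTGCATCA was in 94 of them (0.745%), in 4 of 21 risen ATF4 targets (19%) and in 4 of 11 targets that did not rise (36.4%). The AP-1 site TGANTCA was in 6.72% of all promoters, in 3 of 27 risen regeneration-associated genes (11.1%) and in 2 of 11 of the others (18.2%). The cyclic AMP response element TGACGTCA was in 3.34% of all promoters in 1 of the same 27, that of Ucn (3.7%), and in 1 of the same 11, that of Creb5 (9.09%). The risen named members with a match and the smallest p were Sprr1a, Aars, Ucn and Chac1, and their promoters are shown because they place the motif in genes described above (capitals mark the motif, AP-1 for Sprr1a, the cyclic AMP response element for Ucn and the ATF4 site for Aars and Chac1).
Sprr1a, chr3:92485832-92486131, minus strand: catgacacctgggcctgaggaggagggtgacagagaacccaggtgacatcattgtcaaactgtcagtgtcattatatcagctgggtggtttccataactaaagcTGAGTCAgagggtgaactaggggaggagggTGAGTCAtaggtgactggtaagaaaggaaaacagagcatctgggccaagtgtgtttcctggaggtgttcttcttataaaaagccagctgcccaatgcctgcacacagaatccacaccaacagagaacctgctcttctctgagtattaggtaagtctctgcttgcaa
Aars, chr8:111033592-111033891, plus strand: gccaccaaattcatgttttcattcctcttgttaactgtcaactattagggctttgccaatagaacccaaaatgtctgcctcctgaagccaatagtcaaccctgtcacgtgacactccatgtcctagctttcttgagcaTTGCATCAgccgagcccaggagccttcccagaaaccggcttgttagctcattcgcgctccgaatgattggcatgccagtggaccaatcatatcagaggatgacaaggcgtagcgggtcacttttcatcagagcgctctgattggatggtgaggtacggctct
Ucn, chr5:31138846-31139145, minus strand: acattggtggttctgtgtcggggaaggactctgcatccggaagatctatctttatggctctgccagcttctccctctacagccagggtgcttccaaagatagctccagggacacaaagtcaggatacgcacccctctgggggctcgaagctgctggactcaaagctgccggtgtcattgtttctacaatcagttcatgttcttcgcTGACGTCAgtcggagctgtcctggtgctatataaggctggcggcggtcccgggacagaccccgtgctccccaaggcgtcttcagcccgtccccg
Chac1, chr2:119350992-119351291, plus strand: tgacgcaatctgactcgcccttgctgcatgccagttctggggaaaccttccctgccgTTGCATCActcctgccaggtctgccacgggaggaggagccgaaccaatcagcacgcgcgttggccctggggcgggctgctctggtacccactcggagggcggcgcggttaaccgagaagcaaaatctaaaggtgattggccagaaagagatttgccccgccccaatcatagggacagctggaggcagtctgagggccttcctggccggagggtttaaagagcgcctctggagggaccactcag
The Sprr1a promoter held 2 AP-1 matches, starting 146 and 116 bases before the start. The Aars, Ucn and Chac1 matches started 112, 44 and 193 bases before it. A match describes letters only and does not show binding.

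Lysosomal genes rose as a group. Of 40 tested hydrolases and membrane proteins 24 rose and 2 fell, with a median log2 change of 0.63, and their summed level was 19910 to 20870 CPM in cKO samples and 10600 to 12050 CPM in control samples. Ctsb, a protease of the lysosome, had 11310, 10670, 11820 and 10880 CPM in cKO and 4912, 5314, 4631 and 4496 CPM in control samples (1.21 ± 0.094, adjusted p = 3.11e-07). The tetraspanin Cd63 of late endosomes had 373, 336, 343 and 407 CPM in cKO and 76.8, 78.5, 79.2 and 50.6 CPM in control samples (2.36 ± 0.16, adjusted p = 7.71e-08). Lipa, the acid lipase, had 284, 276, 329 and 254 CPM in cKO and 83.2, 93.0, 108 and 96.3 CPM in control samples (1.58 ± 0.12, adjusted p = 2.02e-07). The ranges within each group were narrow and did not overlap. Grn, the precursor of progranulin (1.25 ± 0.13), and the sterol carrier Npc2 (0.95 ± 0.11) rose too. The members that fell, named because they were so few, were the ceramidase Asah1 (-0.45 ± 0.12) and the protease Lgmn (-1.05 ± 0.18). The palindrome TCACGTGA, an extended E-box to which TFEB and related factors bind, was in 1.94% of all promoters. It was in 4 of 22 risen members (18.2%; Ctsa, Ctsd, Gla and Mcoln1) and in 0 of 11 others. Among subunits of the vacuolar proton pump, described next, it was in 1 of 6 risen members (16.7%; Atp6v0d1). In the same list it was in 2 of 8 others (25%; Atp6v0e and Atp6v1a).

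Of 19 subunits of the vacuolar proton pump, which acidifies lysosomes, 9 rose and 3 fell (median 0.24). Atp6ap2 had 950.3 ± 43.6 CPM in cKO and 513 ± 21.0 CPM in control samples (0.89 ± 0.08, adjusted p = 1.4e-06), and Atp6v0b (0.62 ± 0.089) and Atp6v1g1 (0.61 ± 0.084) rose with it. Atp6v0c, the proton-binding ring subunit, went the other way, with 3.96, 3.40, 4.47 and 4.81 CPM in cKO samples and 27.7, 24.1, 24.3 and 23.8 CPM in control samples (-2.58 ± 0.18, adjusted p = 9.45e-08). It shares sequence with processed copies, and reads that aligned to several places were not counted, so its level is uncertain. Atp6v1g2, the neuronal form of another subunit, fell by 0.81 on the log2 scale (adjusted p = 4.22e-05).

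Autophagy genes moved less, with 6 of 32 higher and 3 lower (median 0.12). Sqstm1, the cargo receptor p62, had 837, 929, 794 and 779.7 CPM in cKO samples and 363, 380.2, 435 and 359.8 CPM in control samples (1.12 ± 0.11, adjusted p = 4.22e-06). Map1lc3a, which encodes a form of the membrane protein LC3, had 286, 344, 309.7 and 294 CPM in cKO and 566, 728, 478 and 514 CPM in control samples (-0.89 ± 0.12, adjusted p = 7.23e-05). The receptor was thus higher and the LC3 gene lower, in every sample. Atg2a (1.17 ± 0.22) and Atg3 (0.65 ± 0.13) rose and Atg5 (-0.42 ± 0.079) fell.

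In glucose metabolism the named rises included the transporters of glucose and lactate. Among 29 glycolytic and hypoxia-inducible genes 11 rose and 3 fell (median 0.29). The glucose transporter gene Slc2a1 had 92.7, 105, 88.7 and 100.5 CPM in cKO samples and 29.6, 21.9, 25.6 and 23.4 CPM in control samples (1.94 ± 0.15, adjusted p = 2.26e-07), and the lactate transporter gene Slc16a1 had 115 ± 5.66 CPM in cKO and 34.2 ± 7.99 CPM in control samples (1.75 ± 0.16, adjusted p = 1.4e-06). Both were higher in every cKO sample than in any control. The glycolytic enzymes Pgk1 (0.96 ± 0.094) and Eno1 (0.59 ± 0.086) and the transcription factor gene Hif1a (0.77 ± 0.12) rose by smaller factors. Of 9 pentose phosphate genes 1 rose, Taldo1 (0.49 ± 0.082).

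Lipid synthesis genes that changed were higher, with 1 exception. Of 27 sterol synthesis genes 8 rose and 0 fell (median 0.24), led by Hsd17b7, with 184 ± 39.97 CPM in cKO and 59.3 ± 17.4 CPM in control samples (1.63 ± 0.22, adjusted p = 8.02e-05). Others were Mvd (1.12 ± 0.21), Insig1 (0.81 ± 0.20), Fdps (0.59 ± 0.10) and Lss (0.57 ± 0.13), of which Insig1 is a feedback regulator and the rest are enzymes. Of 19 fatty acid synthesis genes 9 rose and 1 fell (median 0.33). Slc25a1, which exports citrate from mitochondria, had 152, 169.5, 119.6 and 168 CPM in cKO and 32.4, 38.1, 72.3 and 46.1 CPM in control samples (1.69 ± 0.19, adjusted p = 1.54e-05). Fatty acid synthase (Fasn, 0.97 ± 0.17) and the desaturases Scd1 (0.89 ± 0.14), Scd2 (0.56 ± 0.10) and Fads1 (0.89 ± 0.12) rose too.

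Of 73 nuclear genes for the respiratory chain and ATP synthase 14 rose and 3 fell (median 0.11). Cyc1, cytochrome c1, had 78.0 ± 7.57 CPM in cKO and 34.8 ± 7.32 CPM in control samples (1.17 ± 0.18, adjusted p = 0.00023), Uqcrfs1 rose by 1.05 ± 0.17, and the ATP synthase ring subunits Atp5g1 and Atp5g3 by 0.87 ± 0.17 and 0.57 ± 0.10. Ndufb3 fell by 0.66 on the log2 scale (adjusted p = 0.00125). Mitochondrially encoded genes were higher in 4 of 7 tested cases (median 0.43). For mt-Nd6 cKO samples had 469.7, 483, 372 and 632 CPM and control samples 375, 361, 333 and 286 CPM (0.53 ± 0.13, adjusted p = 0.00945), and cKO sample 3 overlapped the controls. The calls of mt-Nd4 and mt-Nd5 were lost without cKO sample 4 (adjusted p = 0.116 and 0.0531), and that of mt-Nd4 also without cKO sample 2 or control sample 1, 3 or 4 (adjusted p up to 0.0752).

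Few transcripts of ribosomal proteins changed. Of 78 cytosolic ribosomal protein genes 1 rose and 5 fell, a share below the background in both directions, and the median log2 change was -0.0069. The rise, of Rpl35, lost its call in 7 of 8 fits without 1 sample (adjusted p up to 0.0873, without control sample 1), and the fall of Rpl3 in 2. Their levels are uncertain because of processed copies elsewhere in the genome. The larger falls were those of Rps2, with 1.08 ± 0.104 CPM in cKO and 5.44 ± 2.15 CPM in control samples (-2.33 ± 0.28, adjusted p = 2.37e-05), and Rps18, with 21.0 ± 2.24 CPM in cKO and 44.1 ± 2.41 CPM in control samples (-1.07 ± 0.12, adjusted p = 1.39e-05). Of 46 translation factors 10 rose and 4 fell (median 0.04), among them Eif3b (0.94 ± 0.11), Eif5 (0.57 ± 0.088), Eif3c (0.48 ± 0.094) and the elongation factor kinase Eef2k (0.80 ± 0.14) upwards and the helicase Eif4a2 (-0.79 ± 0.10) downwards. Ribosome biogenesis factors rose in 4 and fell in 7 of 49 cases (median 0.08), with Utp20 (0.82 ± 0.17) and Gnl3 (0.66 ± 0.13) higher and the RNA polymerase I factors Taf1b (-0.69 ± 0.14) and Taf1a (-0.84 ± 0.22) lower.

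Of 38 proteasome genes 7 fell and 2 rose, with a median of -0.15. The risen members, Nfe2l1 (0.57 ± 0.12) and Nfe2l2 (0.72 ± 0.15), are transcription factors that drive proteasome and antioxidant genes rather than subunits. The ATPase subunit Psmc5 had 504 ± 18.8 CPM in cKO and 663 ± 34.1 CPM in control samples (-0.40 ± 0.086, adjusted p = 0.00369).

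Stress genes rose in part. Of 30 p53 targets and apoptosis genes 14 rose and 3 fell (median 0.54). Cdkn1a, the cell cycle inhibitor p21, had 299.5, 306, 272 and 290.5 CPM in cKO samples and 57.6, 60.6, 49.9 and 25.4 CPM in control samples (2.59 ± 0.22, adjusted p = 5.88e-07). Gadd45a, a DNA damage response gene that axotomy also induces, had 155, 112, 171 and 178 CPM in cKO and 20.7, 20.9, 28.0 and 25.1 CPM in control samples (2.70 ± 0.19, adjusted p = 9.45e-08). The p53 targets Phlda3 (2.66 ± 0.29) and Mdm2 (1.04 ± 0.13) rose as well, and so did Dr1 (1.19 ± 0.16), a general transcription repressor. The members that fell were Bcl2 (-2.11 ± 0.29) and Bcl2l1 (-0.67 ± 0.18), which protect from apoptosis, and the kinase Plk2 (-0.80 ± 0.21), all named because they were so few.

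Of 29 genes of the NRF2 antioxidant response 7 rose and 5 fell, so the list had no common direction (median -0.019). Srxn1, sulfiredoxin, had 478, 461, 486 and 466 CPM in cKO samples and 159.6, 132, 148 and 124 CPM in control samples (1.75 ± 0.11, adjusted p = 4.73e-08). Hmox1, the heme-degrading enzyme, had 256, 206, 179 and 190.0 CPM in cKO and 17.8, 16.4, 68.5 and 34.0 CPM in control samples (2.60 ± 0.46, adjusted p = 0.000824), and the metallothionein genes Mt1 (1.16 ± 0.13) and Mt2 (1.8 ± 0.23) and thioredoxin reductase Txnrd1 (0.83 ± 0.11) rose with them. Of 24 endoplasmic reticulum chaperones and sensors 7 rose and 2 fell (median 0.08). Eif2ak3, the sensor kinase PERK that acts upstream of ATF4, had 79.0 ± 9.54 CPM in cKO and 29.1 ± 5.17 CPM in control samples (1.44 ± 0.13, adjusted p = 1.2e-06), P4hb rose by 0.44 ± 0.12, and the chaperone Pdia4 fell by 0.65 on the log2 scale (adjusted p = 0.000691).

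Of 18 immediate early genes, which mark recent activity or handling, 3 rose and 2 fell (median -0.24). Dusp1 (1.38 ± 0.21), Jund (0.90 ± 0.13) and Ier3 (0.76 ± 0.20) were higher, and Fos (-0.79 ± 0.20) and Btg2 (-1.08 ± 0.25) lower. Of 32 interferon-induced and MHC class I genes 4 rose and 5 fell (median -0.33). The antigen-presentation genes H2-D1, with 308 ± 36.0 CPM in cKO and 87.2 ± 23.8 CPM in control samples (1.82 ± 0.20, adjusted p = 8.41e-06), B2m (1.27 ± 0.21) and H2-K1 (1.02 ± 0.26) rose, while Tapbp (-0.56 ± 0.14) fell. Of 25 cell cycle genes 4 rose and 1 fell (median 0.68). Cdk6 (1.33 ± 0.20) and Cdk4 (0.68 ± 0.15), kinases that act in the G1 phase, were higher. The other cell cycle calls did not survive leaving out single samples, with adjusted p up to 0.226 for Top2a (without cKO sample 3), 0.0967 for Mcm6 (without control sample 1) and 0.0811 for Aurka (without cKO sample 2).

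Genes that define nociceptor subtypes fell more often than they rose in the peptidergic class and were mixed in the non-peptidergic class. Of 18 peptidergic genes 7 fell and 2 rose (median -0.51), and 9 were not called. The members named here and above were chosen by the rule, and all of them fell. The neuropeptide gene Tac1, a nociceptor marker, was not called, with 42672 to 96636 counts in cKO and 39757 to 192838 counts in control samples. Ptgir, the prostacyclin receptor, had 18.0, 29.0, 28.3 and 23.3 CPM in cKO samples and 192, 192, 55.3 and 204 CPM in control samples (-2.70 ± 0.34, adjusted p = 3.63e-05). Kit, a growth factor receptor, had 8.33, 16, 15.7 and 27.9 CPM in cKO and 171, 103, 62.9 and 119.5 CPM in control samples (-2.75 ± 0.36, adjusted p = 5.93e-05). Both were lower in every cKO sample than in any control, with log2 changes within males and females of -3.02 and -2.33 for Ptgir and -3.49 and -2.06 for Kit.

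Of 27 non-peptidergic and itch-related genes 5 fell and 2 rose (median 0.12), and their summed level was 4532 to 5834 CPM in cKO and 1148 to 3021 CPM in control samples. The risen members, named because they were so few, were Nts, described above, and tyrosine hydroxylase (Th), with 1203, 883, 90.6 and 1283 CPM in cKO samples and 182, 14.4, 86.5 and 116 CPM in control samples (3.11 ± 0.88, adjusted p = 0.0194), where cKO sample 3 overlapped the controls. Without both, the summed level was 2374 to 2635 CPM in cKO and 949.6 to 2851 CPM in control samples, so that the groups overlapped. Mrgpra2b, a Mas-related receptor, had 0.0825, 0.602, 0.245 and 0.591 CPM in cKO samples and 5.56, 10.4, 12.2 and 11.1 CPM in control samples (-4.68 ± 0.67, adjusted p = 0.000127). The neuropeptide somatostatin (Sst) and the interleukin 31 receptor Il31ra, both of one itch-related class, fell by 9.05 and 5.34 on the log2 scale, Sst with 0.133 ± 0.101 CPM in cKO and 73.4 ± 51.7 CPM in control samples. Mrgprd (1.75 ± 0.98, adjusted p = 0.234) and the glial cell line-derived factor receptor Ret (0.81 ± 0.31, adjusted p = 0.0806) did not pass the test. The log2 changes within males and females were -4.52 and -4.80 for Mrgpra2b, -9.08 and -9.01 for Sst, and -6.29 and -5.01 for Il31ra. Mrgprd changed by 3.71 within males and 1.0 within females, and Ret by 1.93 and 0.14 in the same order. Limma-voom did not call Il31ra (adjusted p = 0.0519).

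Transcription factors of sensory neuron identity fell without a single rise. Of 37 tested 11 fell (median -0.35). Hoxd1, a homeobox gene of nociceptors, had 0.0412, 0.0531, 0.522 and 0.0338 CPM in cKO samples and 9.13, 14, 8.90 and 15.1 CPM in control samples (-6.13 ± 0.89, adjusted p = 0.000137). Etv5, an ETS factor downstream of growth factor signals, had 6.5, 14.2, 9.58 and 7.97 CPM in cKO and 36.0, 36.6, 37.3 and 38.2 CPM in control samples (-1.95 ± 0.24, adjusted p = 2.93e-05). Maf had 9.07, 8.54, 11.1 and 12.4 CPM in cKO and 25.8, 37.0, 29.0 and 31.8 CPM in control samples (-1.59 ± 0.20, adjusted p = 3.63e-05). In none did the groups overlap. Ebf1 (-0.76 ± 0.095), Onecut2 (-1.17 ± 0.17) and Isl1 (-0.81 ± 0.16), a LIM homeobox factor needed for sensory neuron development, fell by less.

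Receptors for neurotrophic factors had 5 falls and 5 rises in 26 cases (median -0.059). Ngfr, the low-affinity neurotrophin receptor p75, had 64.4, 96.6, 59.5 and 78.4 CPM in cKO samples and 473, 526, 237 and 404 CPM in control samples (-2.46 ± 0.26, adjusted p = 8.14e-06). Egfr (adjusted p = 7.31e-05) and Gfral (adjusted p = 0.0052) rose but were at most 0.0362 CPM in any control sample. Their means in cKO samples were 0.464 ± 0.237 and 3.31 ± 3.46 CPM, and limma-voom did not call Gfral (adjusted p = 0.350).

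**Figure D4:**
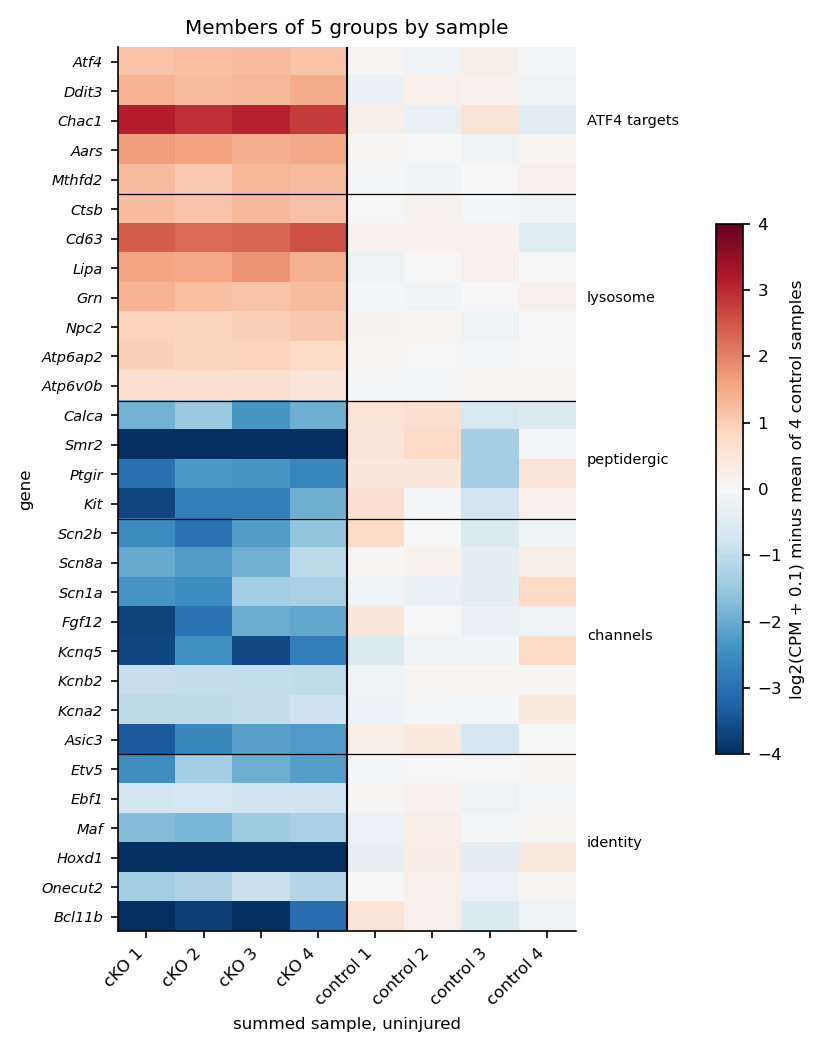
Named members of the ATF4, lysosome, peptidergic, channel and identity groups (rows) in the 4 cKO and 4 control samples (columns). Colours show log2(CPM + 0.1) minus the mean of the control samples and end at -4 and 4. Bcl11b, shown with the identity group, was named for its large fall and not as a member of the identity list. Every ATF4 and lysosome gene shown is above the control mean in all 4 cKO samples, and every gene of the other 3 groups is below it. The rows were picked from genes called in that direction, so this shared direction was fixed in advance. Members named in the text that went the other way are not shown. They include Atp6v0c and Atp6v1g2 of the proton pump and Trpv2, P2rx4, Kcnmb4 and Cacna2d1 of the channels.

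Ion channel genes fell more often than they rose. Sodium channel subunits fell in 5 of 14 cases and rose in 0 (median -0.36). Scn2b, an accessory subunit, had 174, 128, 208 and 331 CPM in cKO samples and 1685, 969.7, 667 and 874 CPM in control samples (-2.32 ± 0.39, adjusted p = 0.000571). Scn8a, the channel Nav1.6 of nodes of Ranvier, had 22.0, 18.9, 23.5 and 43.9 CPM in cKO and 91.9, 98.8, 68.3 and 105 CPM in control samples (-1.75 ± 0.24, adjusted p = 9.8e-05). Fgf12, an intracellular channel regulator, had 56.0, 94.3, 186 and 176 CPM in cKO and 1014, 730.3, 614 and 646 CPM in control samples (-2.55 ± 0.40, adjusted p = 0.000306). The other two were Scn1a (-1.87 ± 0.42) and the accessory subunit Scn3b (-1.47 ± 0.19). The nociceptor channels themselves did not pass the test, Scn10a at -0.15 ± 0.17, adjusted p = 0.617 and Scn9a at -0.23 ± 0.13, adjusted p = 0.241.

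Potassium channel subunits fell in 18 and rose in 4 of 52 cases (median -0.54). Kcnq5, a subunit of the M current that limits firing, had 1.44, 3.40, 1.45 and 2.68 CPM in cKO samples and 12.7, 17.4, 17.6 and 33.2 CPM in control samples (-3.17 ± 0.44, adjusted p = 8.62e-05). Kcnb2, a delayed rectifier, had 114, 112, 112 and 109 CPM in cKO and 198, 226, 229.7 and 224 CPM in control samples (-0.97 ± 0.11, adjusted p = 1.15e-05). Kcna2 (-0.98 ± 0.16), a low-threshold channel of axons, fell too. The accessory subunit Kcnmb4 was among the rises (1.59 ± 0.26). Of 17 calcium channel subunits 2 rose and 4 fell (median -0.095). Cacna2d1, the binding site of gabapentin, had 543 ± 38.0 CPM in cKO and 351 ± 98.0 CPM in control samples (0.63 ± 0.15, adjusted p = 0.00571), and Cacnb4 fell by 0.97 on the log2 scale (adjusted p = 0.000967).

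Channels that turn heat, acid or touch into current fell in 6 and rose in 2 of 26 cases (median -0.28). Asic3, an acid-sensing channel, had 20.5, 34.9, 45.4 and 42.8 CPM in cKO samples and 249.8, 272, 128 and 209 CPM in control samples (-2.58 ± 0.31, adjusted p = 2.37e-05). Asic1 (-2.11 ± 0.44) and Trpm2 (-1.79 ± 0.37), a channel opened by oxidative stress, fell as well. Trpv2, a channel of the vanilloid family, had 164 ± 11.7 CPM in cKO and 93.4 ± 12.3 CPM in control samples (0.81 ± 0.10, adjusted p = 3.63e-05) and the purinergic receptor P2rx4 (0.78 ± 0.17) rose with it. The capsaicin receptor Trpv1 did not pass the test (-0.57 ± 0.31, adjusted p = 0.229).

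Receptors that dampen or tune firing fell in 9 and rose in 3 of 28 cases (median -0.29). Npy2r, a neuropeptide Y receptor, had 9.55, 5.86, 9.37 and 8.31 CPM in cKO samples and 57.3, 101, 75.0 and 111 CPM in control samples (-3.38 ± 0.37, adjusted p = 9.89e-06). Htr1b, an inhibitory serotonin receptor, had 4.93, 6.64, 2.87 and 6.33 CPM in cKO and 67.1, 49.3, 36.4 and 31.5 CPM in control samples (-3.15 ± 0.38, adjusted p = 2.93e-05). Chrm2, a muscarinic receptor, had 0.433, 0, 0.0490 and 1.5 CPM in cKO and 11.9, 10.9, 10.4 and 10.2 CPM in control samples (-4.44 ± 1.06, adjusted p = 0.007). All were lower in each cKO sample than in any control. Htr1d (-1.91 ± 0.46), a related serotonin receptor, fell too.

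Of 41 genes of transmitter release 10 fell and 7 rose (median -0.11). Syt2, a calcium sensor of fast release, had 6.00, 5.07, 7.25 and 5.64 CPM in cKO samples and 41.7, 55.5, 30.2 and 59.6 CPM in control samples (-2.96 ± 0.30, adjusted p = 5.14e-06). Sv2b, a vesicle protein, had 3.63, 12.4, 18.7 and 16.6 CPM in cKO and 144, 179.9, 91.1 and 167 CPM in control samples (-3.50 ± 0.42, adjusted p = 2.46e-05). Cplx2, a complexin that clamps vesicle fusion, fell by 2.19 on the log2 scale and Rab3c by 0.83.

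Markers of other cell types were given beside these groups because the sort could hold other cells. Of 12 satellite glia markers 1 fell and 0 rose, with a summed level of 715 to 914 CPM in cKO and 687 to 1023 CPM in control samples. Of 12 Schwann cell markers 1 fell, S100b, and the rest did not pass the test. S100b, also expressed by large myelinated-fibre neurons, had 28.0, 56.7, 187 and 122 CPM in cKO samples and 983, 1120, 712 and 961 CPM in control samples (-3.26 ± 0.45, adjusted p = 8.76e-05). Large-fibre neuron markers fell in 4 of 12 cases and rose in 0 (median -0.42), with Cntnap2 (-1.01 ± 0.16), Etv1 (-2.97 ± 0.60), Ldhb (-0.81 ± 0.20) and Kcnc1 (-2.51 ± 0.45). Their summed level was 884 to 1112 CPM in cKO and 1286 to 1845 CPM in control samples, and their part in the falls of other groups was not tested.

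The immune and vascular markers that passed the test were all higher in cKO. The share that rose was 18.2% for macrophage, 33.3% for neutrophil and lymphocyte and 20% for vascular and fibroblast markers, against 11.7% of all genes. Of 6 tested neutrophil and lymphocyte markers 2 rose and 0 fell (median -0.23). Their summed level was 7.88 to 12.3 CPM in cKO and 1.89 to 5.95 CPM in control samples. Macrophage markers rose in 2 of 11 cases (median 0.047), and their summed level was 11.1 to 39.5 CPM in cKO and 5.72 to 27.0 CPM in control samples. Cx3cr1, the fractalkine receptor of macrophages, had 2.83, 7.0, 3.69 and 9.30 CPM in cKO samples and 0.0343, 0.0191, 0.0181 and 0.0602 CPM in control samples (adjusted p = 5.22e-07). The defining markers Ptprc, C1qa and Adgre1 had at most 2, 5 and 15 counts in any cKO sample and 31, 4 and 39 in any control sample. Other macrophage genes were present, with 88 to 162 counts of Cd68 in cKO and 2 to 54 in control samples (adjusted p = 0.22), 44 to 86 of Aif1 in cKO and 1 to 96 in control samples, and up to 681 of Cd74 and 375 of Lyz2 in cKO and 871 and 417 in control samples. In 2 of the 14 matched markers, Cd68 and Cx3cr1, all cKO samples were above all control samples in counts. The T cell receptor gene Trbc2 had 2.29, 2.52, 1.86 and 3.51 CPM in cKO and 0.0172, 0.0191, 0 and 0.0401 CPM in control samples (adjusted p = 3.96e-07), while Cd3e and Cd3d had 0 counts in every cKO sample and at most 2 and 1 in control samples. S100a8 rose (adjusted p = 0.000281) with its partner S100a9 at 0 counts in every sample. Of 15 vascular and fibroblast markers 3 rose (median 1.10), with a summed level of 168 to 293 CPM in cKO and 96.8 to 271 CPM in control samples. They included Flt1, with 8.56 ± 4.02 CPM in cKO and 0.0339 ± 0.0296 CPM in control samples (adjusted p = 2.37e-06), and Acta2, with 7.25 ± 0.853 CPM in cKO and 0.132 ± 0.109 CPM in control samples (adjusted p = 1.54e-05). The endothelial gene Cldn5 had at most 3 counts in any sample of either group, while Kdr had 45 to 149 in cKO and 6 to 45 in control samples and Pecam1 up to 49 in cKO and 79 in control samples. The fibroblast gene Pdgfra had 61 to 173 counts in cKO and 23 to 63 in control samples. The part of such cells in the other results was not tested. The calls of Csf1r and Pdgfrb were lost in most cases when 1 sample was left out, with adjusted p up to 0.116 (without control sample 1) and 0.115 (without cKO sample 1).

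Genes off in control neurons formed part of the rise. Of the 2230 risen genes 305 had 3 counts or fewer in each of the 4 control samples, and 133 of these had 0 in all of them. In cKO samples their median level was 0.446 CPM and the highest 11.4 CPM. Limma-voom called 202 of the 305 and DESeq2 279, and a fit of the 8 uninjured samples alone called 119. Without them 1925 genes rose and 1718 fell, while in the fit of the 8 uninjured samples alone 1743 rose without such genes and 1757 fell. Of the fallen genes 26 had 3 counts or fewer in each cKO sample, 15 of them 0 in all. More genes were detected in most cKO samples. Genes with at least 10 counts numbered 17134, 17643, 17730 and 17579 in cKO samples and 17144, 16458, 16800 and 16593 in control samples. The part of this difference in the large rises and in the genes off in control was not tested.

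Tsc2 lies on chromosome 17, and the cKO and control mice differ by allele there, so called genes were counted by distance from it, in bins chosen after the values were seen. Within 10 Mb on the proximal side 15 of 97 tested genes (15.5%) were called and on the distal side 47 of 246 (19.1%). From 10 to 20 Mb distal of Tsc2, 45 of 129 genes (34.9%) were called in uninjured neurons and 30 (23.3%) after crush, 24 in both with the same direction, against 20.7% and 6.59% over all genes. Of the genes named above, Rps2 lies 0.106 and Dusp1 1.92 Mb distal of Tsc2 and Atp6v0c 0.447 and Cldn9 0.931 Mb proximal. Rps2 and Atp6v0c, the nearest of them, also fell after crush, with log2 changes of -2.96 ± 0.28 and -2.29 ± 0.18 (adjusted p = 2.35e-05 and 3.3e-06). Farther on the distal side are Cdkn1a, Tapbp, Rps18, H2-K1, Atp6v1g2, H2-D1 and Ier3, from 4.48 to 11.2 Mb away. The part of this region in the calls was not tested.

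The same deletion was measured in crushed neurons, which tells whether its effect depended on injury. There 1256 genes (6.59%) were called, 644 higher (3.38%) and 612 lower (3.21%). Of the 2230 genes that rose without injury 456 were also higher after crush, which is 20.4% of the uninjured and 70.8% of the crush list, and 5 were lower. Of the 1718 genes that fell without injury 450 were also lower after crush, 26.2% of the uninjured and 73.5% of the crush list, and 0 were higher. The difference of the effects itself, tested as an interaction, passed the threshold for 335 genes (1.76%), 293 (1.54%) with a lower and 42 (0.22%) with a higher effect after crush. The uninjured ganglia lie opposite a crushed nerve, so both sides may come from the same mice, which the labels do not state, and the fit treats them as separate samples. The count of 42 depended on single samples, with 11, 19, 23 and 26 without cKO sample 1, 2 or 4 or control sample 2, and 81 without control sample 3. The count of 293 was 191 without cKO sample 1. Because the interaction subtracts the effect in uninjured neurons, risen genes are favoured among those with a lower effect after crush, and 287 of the 2230 were among them. Fallen genes are likewise favoured among the 42 with a higher effect, and 30 of the 1718 were among them. Higher and lower give the sign of the difference. For a fallen gene a higher effect is thus a smaller fall or a rise after crush.

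The lists differed in how their values after crush compared. For 24 of 49 regeneration-associated genes the effect was lower after crush, and their median log2 change there was 0.084. For Inhbb it was 1.37 ± 0.18 after crush (difference -5.11 ± 0.29, adjusted p = 3.37e-08) and for Flrt3 -0.47 ± 0.12 (difference -3.13 ± 0.18, adjusted p = 3.37e-08). Mean levels of Inhbb, Flrt3, Sprr1a, Sez6l and Cckbr were higher after crush in both genotypes. In control neurons Inhbb had 0.332 CPM without injury and 44.4 CPM after crush, and Flrt3 36.1 and 674 CPM. In cKO neurons Inhbb had 29.5 and 114.5 CPM, and Flrt3 229.5 and 488 CPM. The effect of crush within a genotype was not tested. ATF4 targets had a median of 0.31 after crush, where 5 of 41 were higher and 0 lower, and the effect was lower than without injury for 5. Aars stood at 0.29 ± 0.11 (difference -1.28 ± 0.16, adjusted p = 0.000193). Lysosomal genes had a median of 0.52 after crush, where 20 of 40 were higher and 1 lower, and 1 of them, Cd63, had a different effect (difference -1.39 ± 0.21, adjusted p = 0.00189). Ctsb changed by 1.05 ± 0.093 after crush and Npc2 by 1.25 ± 0.12, both past the threshold there (adjusted p = 1.43e-05 and 1.69e-05). Cdkn1a (0.09 ± 0.20), Gadd45a (-0.01 ± 0.17) and Srxn1 (0.05 ± 0.11) showed no called effect after crush, and their differences of -2.50 ± 0.29, -2.71 ± 0.25 and -1.70 ± 0.16 passed the threshold. Their means in control neurons were 48.4, 23.7 and 141 CPM without injury and 419, 318 and 699 CPM after crush. Peptidergic genes had a median of -0.52, and for sodium and potassium channel genes no difference of effects was called (medians after crush of -0.50 and -0.28). A difference that misses the threshold does not show that the effects are alike.

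**Figure D5:**
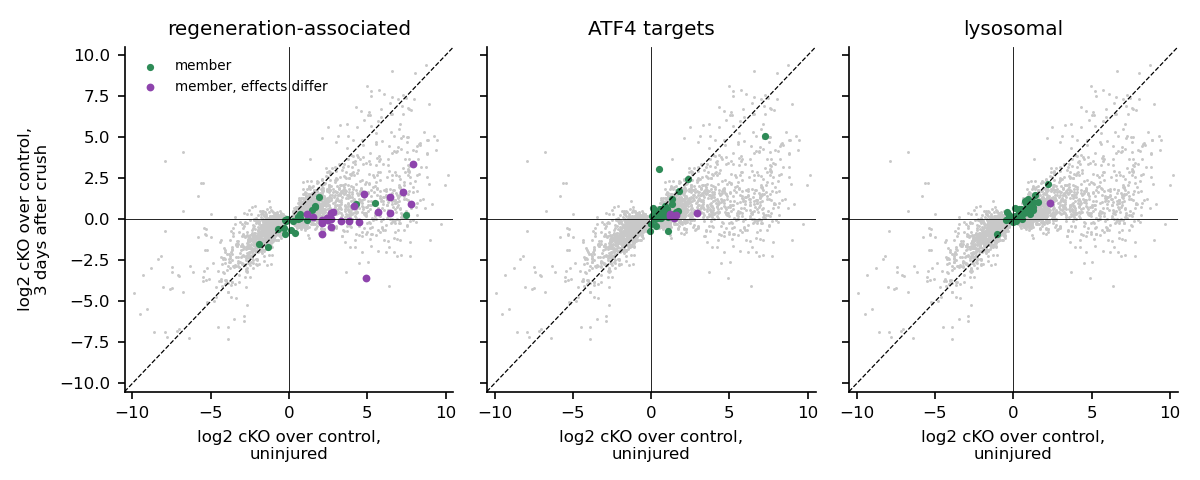
Log2 change of cKO over control in uninjured neurons (horizontal) and 3 days after crush (vertical), with all 3948 genes called in uninjured neurons in grey and the members of 3 lists in colour, purple where the difference of effects passed an adjusted p of 0.05. The dashed line marks equal effects, below which most regeneration-associated members lie and along which most lysosomal members lie.

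The authors' deposited table held 8600 genes for the uninjured cKO group, 2633 higher and 2521 lower, with a reference group that the sources used here do not give. Of the genes called here, 3663 were called in the authors' deposited table in the same direction and 0 in the opposite one, 68 were in it without a call and 217 were not in it. In the authors' deposited table Tsc2 had a log2 change of -1.22 with an SE of 0.251 and an adjusted p of 1.4e-05.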

How the data were processed

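Per the labels' protocols, L4 ganglia were dissociated and sorted by ZsGreen, amplified with a SMARTer Ultra Low kit and sequenced as single 50-base reads. That kit does not mark strand, so overlapping antisense genes cannot be told apart. The authors deposited raw read counts per gene for each library; the submitters' processing notes name FastQC, STAR, HTSeq, DESeq2 and mm10, without tool versions. Reads aligned to several places (37.5 to 42.6% of counts and summary lines) were not counted, and reads outside genes (6.53 to 10.7%) and ambiguous ones (2.18 to 2.58%) stayed out of library sizes. Aliquots of a sample differed beyond sampling noise (chi-square per degree of freedom 24.3 to 80.1) but are technical, so they were summed and the sum is 1 replicate. The authors also deposited log2 fold changes and p-values of their own, per the file headers, used only for comparison.

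Summed counts of all 16 samples of the study were fitted with edgeR 4.0.16 in R 4.3.3 (TMM scaling, filterByExpr, 1 mean per group) and tested two-sided with its quasi-likelihood test, p-values adjusted by Benjamini-Hochberg over 19048 genes. A change is called at an adjusted p under 0.05. Log2 changes are cKO over control, with SE as the size divided by the square root of F. CPM use TMM-scaled library sizes, means are given ± SD and log2 changes ± SE (n = 4 per group). The interaction is the effect of deletion after crush minus that without injury. Of 47643 gene identifiers 47224 matched a symbol in GENCODE M21 (GRCm38, the same assembly as mm10), from which coordinates come. The rule named Tsc2; among called genes without overlap, the 15 largest rises and falls with a mean of at least 10 CPM and the 8 largest in CPM; and up to 5 called members of each list with the smallest p. Genes named outside it are said to be few or were chosen after their values were seen. The latter were Tsc1, Scn10a, Scn9a, Trpv1, Mrgprd, Ret, Tac1 and markers at or near 0 or given in counts. A few genes that the rule names are not reported here. The members and lists were chosen with earlier results of these data known. DESeq2 1.42.0 and limma 3.58.1 served as alternatives.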

Additional observations from a re-analysis of the deposited data

Results flagged for a closer look

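In some named genes 1 sample of a group of 4 stood apart from the others on the log2(CPM + 0.1) scale, its gap to the nearest sample, as a share of the group's range, being over Dixon's critical value for 4 samples. Chance alone gives this in about 1 of 20 groups, and over 203 genes and both groups no pattern is read from it. Among cKO samples the highest stood apart for Rps18 (24.4 CPM, sample 3), Taf1b (26.7 CPM, sample 4), Cacnb4 (80.9 CPM, sample 4), Hoxd1 (0.522 CPM, sample 3), Tapbp (64.1 CPM, sample 2), Mdm2 (54.3 CPM, sample 4) and Top2a (5.84 CPM, sample 3). The lowest cKO sample stood apart for Sprr1a (177 CPM, sample 4), Chp2 (0.103 CPM, sample 1), Chrnb4 (0.0653 CPM, sample 3), Mthfd2 (126 CPM, sample 2), Hsp90b1 (208 CPM, sample 2), Ier3 (45.2 CPM, sample 2) and Ldhb (193 CPM, sample 2). Among control samples the highest stood apart for Gm29374 (0.706 CPM, sample 2), Tgfbi (1.71 CPM, sample 4), Atp6v0c (27.7 CPM, sample 1) and Rab3c (511 CPM, sample 4). The lowest control sample stood apart for Nts (15.9 CPM, sample 1), Cldn9 (9.04 CPM, sample 3), Cd63 (50.6 CPM, sample 4), Taf1b (28.6 CPM, sample 3), Ptgir (55.3 CPM, sample 3), Kcnb2 (198 CPM, sample 1), Gfral (0 CPM, sample 1) and Fos (119 CPM, sample 4).

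For 43 named genes the effect of deletion differed between crushed and uninjured neurons, by the interaction test of edgeR at an adjusted p under 0.05. The values are the log2 change of cKO over control after crush minus that without injury. The difference was below -5 for Cx3cr1 (-7.09), Cckbr (-6.90), Ifi202b (-6.15), Qrfpr (-6.14), Sez6l (-6.05), Gm29374 (-5.99), Tgfbi (-5.97), Wfdc3 (-5.84), Ecel1 (-5.64), Krt19 (-5.55), Trbc2 (-5.46), Sprr1a (-5.27) and Inhbb (-5.11). It lay between -5 and -2 for Wt1 (-4.85), Ucn (-4.56), Flt1 (-3.71), Tubb6 (-3.46), Egfr (-3.45), Nts (-3.22), Flrt3 (-3.13), Anxa3 (-2.87), Tuba1c (-2.75), Gadd45a (-2.71), Chac1 (-2.54), Cdkn1a (-2.50) and Stmn4 (-2.34). It lay between -2 and 0 for Srxn1 (-1.70), Grb10 (-1.50), Cd63 (-1.39), Eif3b (-1.36), Aars (-1.28), Slc2a1 (-1.03), Eif2ak3 (-1.03), Atf4 (-1.0), Txnrd1 (-0.92), Mthfd2 (-0.91), Trpv2 (-0.69), Sqstm1 (-0.64) and Taldo1 (-0.64). The effect was higher after crush for Tuba4a (0.82), Fos (1.23), Maf (1.34) and Mob3b (2.02), all of which were lower in cKO without injury. After crush the log2 changes themselves were -0.43 for Tuba4a, 0.44 for Fos, -0.25 for Maf and -2.29 for Mob3b. Genes chosen for a large rise without injury are favoured to show a lower effect elsewhere, so these differences are described and not counted as support for the rise.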

How the results depend on the processing

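Alternatives were other scalings (RLE, upper quartile), tools (DESeq2, limma-voom), the 8 uninjured samples alone, no filter on low counts, sex as a covariate, a replicate block, single aliquots, a stricter threshold, and each of the 8 uninjured samples left out in turn. The counts of 2230 higher and 1718 lower genes stayed within 1.5 times the reported count except as follows. With aliquot A, B or C alone, 670, 1014 and 612 genes were higher and 329, 669 and 316 lower, since depth and cells are then a fraction of the sum. At an adjusted p under 0.01 the counts were 1250 and 855. Within females, with a mean per group and sex, 829 were higher and 452 lower, and within males 1628 and 1096, from 2 samples per arm (chosen after seeing the data). Leaving out 1 sample gave 1709 to 2214 higher and 1223 to 1794 lower. Same-numbered samples did not deviate together (correlations 0.017, 0.056, 0.009 and 0.026), so the numbers were not taken to pair samples, and the replicate block gave 2209 higher and 1700 lower. For the 2 sides with the same number and genotype the correlations were 0.063, 0.152, 0.106 and 0.066 in cKO and 0.084, 0.046, 0.109 and 0.041 in control, and a replicate block of these sides (chosen after seeing the data) gave 44 genes with a higher and 244 with a lower effect after crush. The interaction counts of 42 higher and 293 lower were 200 and 543 with DESeq2, 3, 1 and 12 higher and 77, 31 and 70 lower with aliquots A, B and C, and 5 and 149 at the stricter threshold. They ranged over 11 to 81 and 191 to 404 without 1 sample. Tsc2 missed the threshold with aliquot C alone (log2 change -1.41, adjusted p = 0.293), and with each sample left out its log2 change was -1.40 to -1.15. Of 205 called named genes 19 lost the call without at least 1 sample. Ifi44 turned direction with aliquot A alone (1.55, adjusted p = 0.762). The cause of these shifts was not tested beyond the smaller samples. Only 4 animals per group limit precision, the libraries come from about 100 cells each, counts include amplification copies, and genes with few counts have fitted changes that depend on the prior count.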
